A study of Arabidopsis thaliana with 6 samples.

Results

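The comparison described here is that of dark-grown Arabidopsis thaliana seedlings given hydrogen peroxide with dark-grown seedlings given none. It was read from the 2 arrays labelled H2O2 and the 2 labelled dark, which are 4 of the 6 arrays in the study. All seedlings were of the Col-0 ecotype, grown on half-strength MS medium and harvested whole at 7 days. The dark group stayed in darkness, the H2O2 group stayed in darkness and received 5 mM H2O2, and the 2 remaining arrays hold seedlings grown under 16 h of light and 8 h of dark a day. According to the series design, darkness was used to lower the H2O2 that the seedlings make themselves, so that peroxide could be added back from outside. When in the 7 days the peroxide was added, and for how long, is not given in the sources used here. The series design calls the 2 samples of each group biological replicates. RNA was hybridised to ATH1 arrays, which carry 1 dye and read each gene through short probes gathered into probe sets.

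Hydrogen peroxide is both a damaging oxidant and a signal in plants. It is made by respiration, photosynthesis and wall-bound oxidases, and is removed by catalases, peroxiredoxins and the ascorbate and glutathione cycle. In the wall, class III peroxidases use it to cross-link extensins and phenolics, while in the cytosol oxidised proteins and lipids are dealt with by chaperones, proteases and conjugating enzymes such as glutathione S-transferases and UDP-glycosyltransferases. A seedling kept in the dark elongates, keeps its plastids as etioplasts without chlorophyll, and lives on its seed reserves.

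Added peroxide was followed by widespread differences. Of 22746 probe sets tested, 4656 (20.5%) differed between the H2O2 and dark arrays at an adjusted p under 0.05, and 7589 had an unadjusted p under 0.05. More of the calls were rises (2795, or 12.3% of the probe sets) than falls (1861, or 8.18%), and 1147 (5.04%) changed at least 2-fold. The arrays of the groups did not overlap for 13907 probe sets (61.1%), which with 2 arrays against 2 is a weak criterion. Lack of overlap was also a condition for naming the called genes of a list and the largest rises and falls below. The count of calls depended on each library: it was 3131 without dark replicate 1, 2306 without dark replicate 2, 2173 without H2O2 replicate 1 and 2135 without H2O2 replicate 2. Falls dropped from 1861 to between 676 and 1091 in these fits.

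The balance of rises and falls also rested on the scale. Rises made up 60.0% of the calls on the deposited values and 39.3% after each array was centred on its own median. They made up 98.9% after centring on the 18 hybridisation control probe sets, which read transcripts added for the hybridisation step. The median of those controls was 9.47 and 10.13 on the dark arrays and 9.08 and 8.96 on the H2O2 arrays. On the light arrays it was 8.68 and 9.54. That scale therefore varied between replicates of a group as well. Centring on those controls raised the median difference of all probe sets from -0.02 to 0.76 on the log2 scale, so that any fall smaller than that shift turned into a rise. Centring on array medians lowered it to -0.14. Differences below are therefore on the deposited log2 scale, where 1 unit is a 2-fold difference, and are relative to the other genes on the array.

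The light-grown libraries were as labelled by their green-tissue markers: all 9 measured photosystem and antenna genes were higher on both light arrays than on both dark arrays. Their summed level, on a linear scale, was 16332 and 16742 on the dark arrays, 19762 and 17677 on the H2O2 arrays, and 67490 and 67361 on the light arrays. The log2 signal of 3 Arabidopsis control transcripts was higher at the 3′ than at the 5′ end by 2.28 ± 0.13 (SD, n = 2) in the dark group and 2.30 ± 0.02 in the H2O2 group, so this sign of RNA quality did not separate them. The dark replicates did differ along the direction of the rises: among the 2795 probe sets that rose, dark replicate 1 lay above dark replicate 2 for 66.4%, against 47.1% of all probe sets. The part of that spread in the rises was not tested.

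Genes were named for 13355 loci, of which 1466 rose and 1082 fell, with a median difference of -0.03. This is the background against which each group of genes below is described. Most of the 1466 rises and most of the 1082 falls lost their call in at least 1 of the 4 fits that left out a library. Of the 13355 loci 5888 were dim in both groups, that is, with both group means under a log2 value of 5.16. In a fit without dim probe sets 2603 of 13648 rose and 1822 fell, larger shares than over all probe sets. Lists with few dim members can therefore exceed the background through brightness alone, which was not tested. Among lists of at least 5 measured genes, root hair genes had the lowest median (-1.42), followed by PRA1 proteins (-0.58), iron genes (-0.54), low-oxygen genes (-0.54) and mitochondria-encoded genes (-0.53), and all of these but the first turned positive after centring on the hybridisation controls. The highest medians were those of co-chaperones (0.99, a list narrowed after values were seen), splicing and mRNA export proteins (0.82), seed storage and oil body genes (0.43), chromatin proteins (0.36) and LEA and dehydrin genes (0.35).

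**Figure D1:**
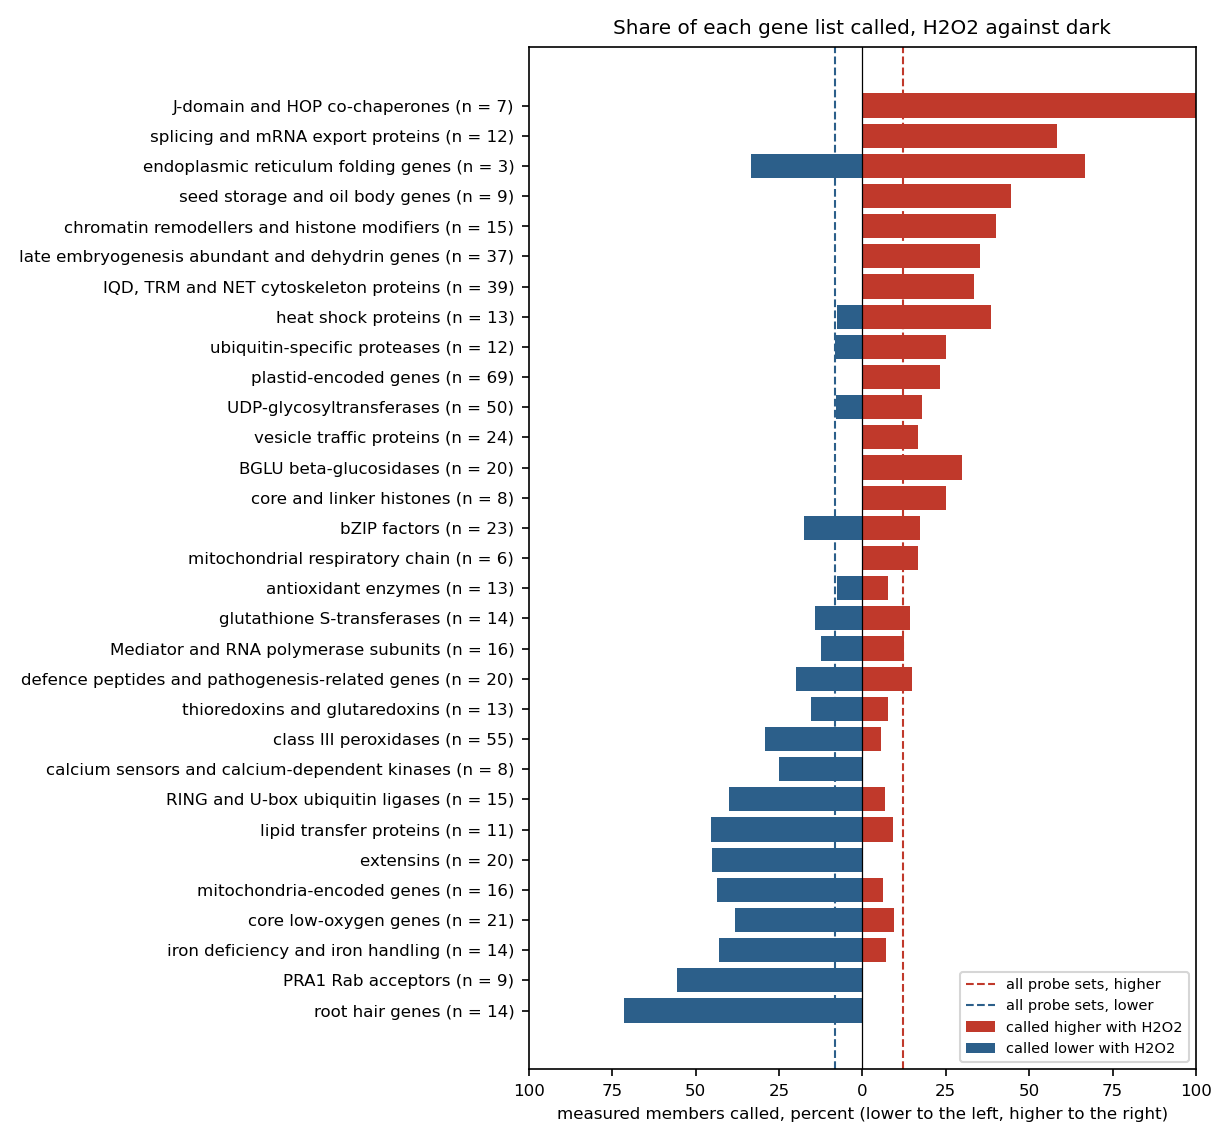
Share of the measured members of 31 gene lists called higher (red, to the right) or lower (blue, to the left) with H2O2 than in the dark, in percent, ordered by the median log2 difference of the list. Dashed lines mark the shares over all probe sets, 12.3% higher and 8.18% lower; of 14 root hair genes 10 were called lower and all 7 co-chaperones of a list narrowed after values were seen were called higher, on the deposited scale, while after centring on the hybridisation controls the medians of the falling lists, root hair genes excepted, turned positive.

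Most of the measured root hair genes fell. The root hair list was written with 39 loci, and 14 genes on it were measured. Root hairs are tubular outgrowths of the root epidermis, and their tip growth needs expansins, extensins and secreted peroxidases. Of 14 measured genes on the root hair list, 10 fell and none rose, against 8.18% and 12.3% of all probe sets. Both H2O2 arrays lay under both dark arrays for 13 of the 14. Over all probe sets the groups did not overlap, in either direction, for 61.1%. The list's median difference was -1.42 on the deposited scale and -0.64 after centring on the hybridisation controls, under which only 1 of the 14 genes, AT1G26240, was called lower.

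EXPA7, a root hair expansin that loosens the wall, had log2 values of 5.67 and 5.17 on the dark arrays and 3.83 and 4.09 on the H2O2 arrays. Its paralogue EXPA18 read 6.05 and 5.32 in the dark and 4.44 and 4.01 with H2O2. Both H2O2 arrays lay below both dark arrays for each gene, and each fell by 1.46 on the log2 scale (SE 0.19 for EXPA7 and 0.24 for EXPA18). With H2O2 both were dim, that is, under the 40th percentile of probe set means, a log2 value of 5.16. These 2 expansins were picked after their values were seen.

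AT1G26240, on both the root hair and the extensin lists, read 6.37 and 7.10 in the dark and 3.70 and 4.02 with H2O2. The groups did not overlap, and the difference was -2.88 ± 0.23 (SE; adjusted p = 0.00022). AT1G26250, on the same lists, read 9.19 and 9.57 in the dark and 7.17 and 7.73 with H2O2, again without overlap. It differed by -1.93 ± 0.23. AT4G26010, on the root hair and class III peroxidase lists, fell by 1.64, from 7.80 and 7.33 to 5.95 and 5.89. AT5G06630, a further member of the root hair list, fell by 1.60 and was dim with H2O2. Its probe set is of a kind that can match more than 1 transcript.

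Summed over the 14 genes, the linear level of the root hair list was 1597 and 1668 on the dark arrays, 509 and 571 on the H2O2 arrays, and 1822 and 1371 on the light arrays. In the dark 4 of the 14 genes were dim on each array, and with H2O2 10 and 9 were. In RNA from whole seedlings, fewer cells of a type and less RNA per cell cannot be told apart.

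**Figure D2:**
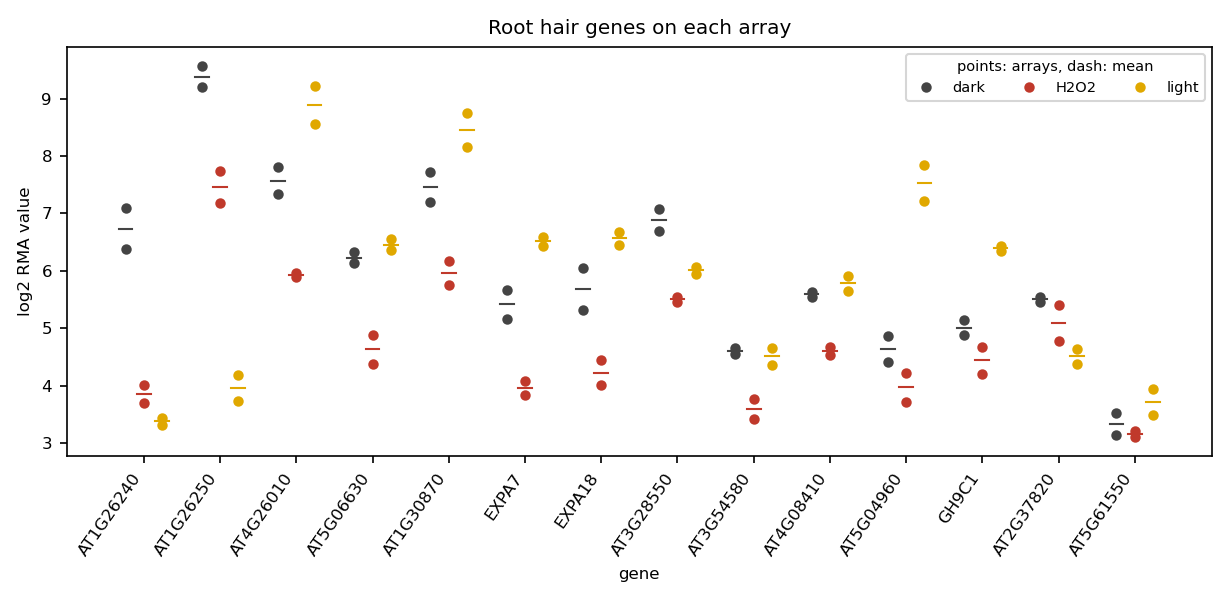
Log2 RMA values of the 14 measured root hair genes on each array, with 2 points and a dash for the mean in each of the dark (grey), H2O2 (red) and light (yellow) groups. Genes are ordered by their difference, and both H2O2 arrays lie under both dark arrays for 13 of them. Over all probe sets the groups did not overlap, in either direction, for 61.1%.

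Extensins, the rod-like hydroxyproline-rich proteins of the wall, fell or were not called. Of 20 measured members 9 fell and none rose, and the median of -0.47 turned to 0.30 after centring on the hybridisation controls. Of those 9, 3 were not on the root hair list. HRGP1, an extensin gene outside the root hair list, read 7.21 and 7.27 in the dark and 5.71 and 5.49 with H2O2, without overlap, and fell by 1.64 (SE 0.13, adjusted p = 0.00025). AT1G23720, also outside the root hair list, fell by 1.76. Of the 9 called members 4, HRGP1 and AT1G23720 among them, were read by probe sets that are designed to match more than 1 transcript. Values of near-identical extensins are therefore uncertain, and so is the separation of HRGP1 and AT1G23720 from extensins of the root hair list.

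Class III peroxidases, the secreted haem enzymes that consume or produce H2O2 in the wall, leaned the same way. Of 55 measured, 16 fell and 3 rose, with a median of -0.28 that turned to 0.50 after centring on the hybridisation controls. AT1G30870, which is on the root hair list too, read 7.72 and 7.21 in the dark and 6.18 and 5.75 with H2O2, without overlap, and fell by 1.50. AT5G19890 fell by 1.49, a call that ended without dark replicate 1 or H2O2 replicate 2, and AT2G39040 fell by 1.41, a call that ended without H2O2 replicate 2. Of the 16 falls, 4 held in all 4 fits that left out a library.

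Lipid transfer proteins, small secreted proteins that bind lipids at the surface of the plant, had 5 falls and 1 rise among 11 measured members, with a median of -0.45 that turned to 0.33 after centring on the hybridisation controls. AT4G22640 on this list read 6.56 and 6.41 in the dark and 4.04 and 3.97 with H2O2, a difference of -2.48 ± 0.14. The 2 groups did not overlap, and the gene was dim with H2O2. AT4G22460 fell by 0.96.

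Some iron acquisition genes fell, and 1 of their regulators rose. Under iron shortage, Arabidopsis roots switch on a network of bHLH factors that drives iron reduction, uptake and coumarin secretion. Of 14 measured members of the list, 6 fell and 1 rose, and the median of -0.54 turned to 0.24 after centring on the hybridisation controls. AT1G47400 read 7.82 and 8.08 in the dark and 5.67 and 5.56 with H2O2, without overlap, and differed by -2.34 ± 0.14 (adjusted p = 0.00015). AT3G13610 read 11.20 and 10.99 in the dark and 9.10 and 9.82 with H2O2 and fell by 1.64. In light, AT1G47400 stood above its dark level, at 9.56 and 9.70, and AT3G13610 below it, at 7.74 and 7.54.

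BHLH101, one of the iron-induced bHLH factors, read 5.79 and 6.03 in the dark and 4.62 and 4.58 with H2O2. It fell by 1.32 (SE 0.17, adjusted p = 0.0013), and was dim with H2O2. PYE, the bHLH factor POPEYE that restrains iron mobilisation genes, was picked after its values were seen and fell by 0.63, which became a difference of 0.15 after centring on the hybridisation controls. That call ended without dark replicate 2 or H2O2 replicate 2. The rise was bHLH121, which acts upstream in the network: it read 8.32 and 7.94 in the dark and 9.26 and 9.33 with H2O2, a difference of 1.16 ± 0.17. The other bHLH regulators on the list were not called: bHLH34 differed by -0.20, bHLH104 by -0.18, ILR3 by -0.09 and bHLH115 by 0.30.

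Genes of the core low-oxygen response, those that most plant cells raise when submerged, were lower on balance. Of 21 measured, 8 fell and 2 rose, and the median of -0.54 turned to 0.24 after centring on the hybridisation controls. AT3G29970 read 6.58 and 5.58 in the dark and 3.83 and 3.63 with H2O2, without overlap, and differed by -2.35 ± 0.27. AT2G17850 fell by 1.25 but was dim in both groups. AT1G05575 fell by 1.13, and that call ended without dark replicate 1, without dark replicate 2 or without H2O2 replicate 1. AT1G26270 went the other way, with 7.90 and 7.88 in the dark and 9.25 and 9.14 with H2O2, a rise of 1.31.

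Defence and calcium genes gave a mixed picture. RING and U-box ubiquitin ligases, among which PUB22 and PUB24 are known to dampen immune signalling, had 6 falls and 1 rise among 15, with a median of -0.42 that turned to 0.36 after centring on the hybridisation controls. PUB22 read 8.45 and 8.62 in the dark and 7.53 and 7.50 with H2O2, without overlap, and fell by 1.02 (SE 0.13, adjusted p = 0.0014). PUB24 fell by 0.83, a call that ended without dark replicate 2 or H2O2 replicate 1. ATL8 fell by 0.90, a call that ended without any one of the 4 libraries, whereas PUB49 rose by 1.20.

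Among 8 calcium sensors and calcium-dependent kinases 2 fell and none rose. The calmodulin-like CML43 read 8.06 and 7.89 in the dark and 6.43 and 7.03 with H2O2 and fell by 1.25. CML42 fell by 0.63 on the deposited scale and differed by 0.15 after centring on the hybridisation controls, and its call ended without dark replicate 1, without dark replicate 2 or without H2O2 replicate 1. Of 20 defence peptides and pathogenesis-related genes, 4 fell and 3 rose. The chitinase gene CHI fell by 1.19, from 9.49 and 9.33 to 8.30 and 8.13, while the defensin genes PDF2.1 and LCR67 rose by 1.67 and 0.87 from dim dark levels. The defensin gene PDF2.5 fell by 0.87, a call that ended without dark replicate 1 or H2O2 replicate 2.

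STZ, a zinc finger repressor widely used as an oxidative stress marker, was not called. It read 7.41 and 7.72 in the dark, 5.80 and 6.17 with H2O2, and 5.55 and 7.82 in light. Both H2O2 arrays lay under both dark arrays, but the difference of -1.58 had an SE of 0.57 (adjusted p = 0.083), a spread to which the 2 light arrays contribute: with the dark and H2O2 arrays alone the same difference was called (adjusted p = 0.000999). Other genes chosen after their values were seen were MMP, a matrix metalloproteinase gene, which fell by 1.64, ChiC, a class V chitinase gene, which fell by 1.57, CCOAMT, a caffeoyl-CoA O-methyltransferase gene of phenylpropanoid synthesis, which fell by 1.52, and GID1B, a gibberellin receptor gene, which fell by 0.85.

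PRA1 proteins, which bind Rab GTPases on endomembranes, had 5 falls and no rise among 9 measured members, and their median of -0.58 turned to 0.20 after centring on the hybridisation controls. PRA1.G2 read 7.15 and 7.31 in the dark and 6.08 and 6.38 with H2O2 and fell by 1.00, a call that ended without dark replicate 2 or H2O2 replicate 1. PRA1.B1 read 9.25 and 9.19 in the dark and 8.52 and 8.56 with H2O2 and fell by 0.68, and it differed by 0.10 after that centring. Its call held without any one of the 4 libraries.

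Of 13 measured genes on the antioxidant list 1 rose and 1 fell, with a median of -0.10. The list holds mainly genes of methionine and glutathione repair, and few that remove peroxide directly. The riser was GR1, the cytosolic glutathione reductase that regenerates glutathione: it read 8.53 and 8.43 in the dark and 9.60 and 9.50 with H2O2, without overlap, a difference of 1.07 ± 0.13 (adjusted p = 0.001). The plastid form GR differed by -0.10 and was not called, as were the sulfiredoxin SRX (-0.05), the mitochondrial peroxiredoxin PRXIIF (-0.10), and the plastid ascorbate peroxidases SAPX (0.29) and TAPX (0.41). MSRB5, a methionine sulfoxide reductase, fell by 0.51 on the deposited scale and differed by 0.27 after centring on the hybridisation controls, and its call ended without any one of the 4 libraries. Catalases and cytosolic ascorbate peroxidases were not analysed here.

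Of 13 thioredoxins, glutaredoxins and their reductases, 1 rose and 2 fell. NTRC, the plastid NADPH-dependent thioredoxin reductase, read 6.56 and 6.70 in the dark and 7.59 and 7.51 with H2O2, and rose by 0.92 (SE 0.13). The plastid thioredoxins TY1 and ATHM2 fell by 0.63 and 0.44, values that turned to 0.15 and 0.34 after centring on the hybridisation controls, and both calls ended without any one of the 4 libraries.

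Glycosyltransferases and glutathione S-transferases attach sugars or glutathione to small molecules. Of 50 UDP-glycosyltransferase genes 9 rose and 4 fell, which is near the shares over all probe sets, and the median was 0.05 (-0.07 after array-median centring). The 3 largest rises were all of the UGT73B group, whose members are known as stress- and oxidant-induced genes. UGT73B1 read 5.73 and 5.46 in the dark and 7.86 and 7.25 with H2O2, a rise of 1.96 ± 0.26. UGT73B4 read 6.20 and 5.90 in the dark, 7.90 and 8.00 with H2O2, and 4.62 and 4.23 in light, and UGT73B5 read 6.08 and 5.54 in the dark, 7.42 and 7.29 with H2O2, and 5.33 and 5.23 in light. They rose by 1.90 (SE 0.17) and 1.55 (SE 0.18).

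Glutathione S-transferases split evenly, with 2 rises and 2 falls among 14 and a median of -0.10. The phi-class GSTF4 rose by 0.89, from 6.73 and 6.67 to 7.41 and 7.78. GSTU20, of the tau class, read 8.26 and 8.39 in the dark and 7.55 and 6.24 with H2O2 and fell by 1.43, a call that ended without dark replicate 1 or dark replicate 2. GSTL3 rose by 0.66, a call that ended without dark replicate 2, without H2O2 replicate 1 or without H2O2 replicate 2. GSTU28 fell by 0.92, a call that ended without dark replicate 1, without dark replicate 2 or without H2O2 replicate 1. Among 20 beta-glucosidases of the BGLU family, which release sugars from stored conjugates, 6 rose and none fell, with 13 dim in both groups and a median of 0.03 that became -0.10 after array-median centring. BGLU46, BGLU42 and BGLU44 rose by 1.42, 1.24 and 1.02, and BGLU46 went from 5.85 and 5.58 to 7.14 and 7.12.

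Co-chaperone genes rose, and heat shock genes were mixed. J-domain proteins hand unfolded clients to HSP70, and HOP proteins link HSP70 to HSP90. The list held 7 measured genes of these families that carry such a symbol, all of which rose, with a median of 0.99, and 6 of the rises held in all 4 fits that left out a library. It was written, and narrowed from 10 genes with 8 rises and no fall, after values of these data had been seen, so the count is a description of chosen genes. ATERDJ2A, a J-domain protein of the endoplasmic reticulum membrane, read 6.42 and 6.07 in the dark and 8.17 and 7.77 with H2O2, a rise of 1.73 ± 0.18 (adjusted p = 0.00047). On the light arrays it read 7.75 and 7.77. Its paralogue ATERDJ2B rose by 1.13 from a dim dark level. Hop2 read 7.19 and 6.97 in the dark and 8.49 and 8.28 with H2O2 and rose by 1.31, and its paralogue Hop1 rose by 0.91. ATJ1, a mitochondrial J-domain protein, rose by 0.81 from a dim dark level.

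Among 13 heat shock proteins and their helpers 5 rose and 1 fell, with a median of 0.27. Several of the risers were weakly expressed: Hop3, which is also on the co-chaperone list, rose by 0.96 and AT5G48570 by 0.99 while dim in both groups, and AT5G51440 and AT2G20560 rose by 1.09 each from dim dark levels. Hsp70-2 went the other way and fell by 0.48, which became a difference of 0.30 after centring on the hybridisation controls, a call that ended without any one of the 4 libraries. The endoplasmic reticulum list held 3 measured genes. ATERDJ3B, a J-domain protein of the lumen, rose by 0.99, and CRT1b, a calreticulin, rose by 0.78, a call that ended without dark replicate 2 or H2O2 replicate 1. BZIP60, the factor that mediates the unfolded protein response, read 9.35 and 9.50 in the dark and 8.43 and 8.64 with H2O2 and fell by 0.89 (SE 0.15).

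Of the genes of the late seed stage, some rose and none of those listed fell. Late embryogenesis abundant (LEA) proteins and dehydrins are hydrophilic proteins that protect cells during drying and cold, and most are made in the maturing seed or under abscisic acid. Of 37 measured, 13 rose and none fell, against 12.3% and 8.18% of all probe sets, and 19 of the 37 were dim in both groups. The list's median was 0.35, and 0.23 after array-median centring, under which 10 rose. COR47, a dehydrin that was bright in both groups, read 9.61 and 8.89 in the dark and 11.03 and 11.11 with H2O2, a rise of 1.82 ± 0.21 (adjusted p = 0.00084). LTI30, another dehydrin, picked after its values were seen, rose by 1.24.

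M17, a seed LEA gene, read 3.37 and 4.49 in the dark and 7.03 and 7.99 with H2O2, a rise of 3.58 ± 0.58 from a dim level. AT3G15670 rose by 2.02 from a dim level as well. LEA18 rose by 1.84, a call that ended without dark replicate 1 or H2O2 replicate 2. AT3G02480 shows the spread between replicates, with 4.34 and 5.54 in the dark and 6.02 and 7.97 with H2O2. Its difference of 2.06 was not called (adjusted p = 0.07), but was with the dark and H2O2 arrays alone (adjusted p = 0.0391).

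Of 9 measured seed storage and oil body genes 4 rose and none fell, against 12.3% and 8.18% of all probe sets. PAP85, a vicilin-like storage protein gene, read 3.65 and 3.43 in the dark and 7.08 and 5.51 with H2O2, a rise of 2.76 ± 0.41. AT2G28490 and AT3G01570 rose by 2.42 and 2.31 from dim dark levels. OLEO3, an oleosin that coats oil bodies, read 6.89 and 7.15 in the dark, 7.57 and 7.56 with H2O2, and 4.35 and 4.50 in light. It rose by 0.54, a call that ended without dark replicate 1, without H2O2 replicate 1 or without H2O2 replicate 2, and under array-median centring (0.42, adjusted p = 0.071).

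The summed linear level of these 9 genes was 213 and 251 on the dark arrays, 555 and 473 on the H2O2 arrays, and 115 and 161 on the light arrays. On each dark array 8 of the 9 were dim, and on each H2O2 array 5 were. The part of remaining seed tissue in these levels was not tested.

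HIS1-3, a linker histone known to be induced by drought and abscisic acid, moved with them: it read 8.67 and 8.32 in the dark, 10.03 and 9.68 with H2O2, and 6.91 and 6.63 in light, a rise of 1.36 ± 0.18. EEL, a bZIP factor that acts on LEA genes in seeds, rose by 0.92, a call that ended without dark replicate 2 or H2O2 replicate 2. HYH, the close homologue of the light-signalling factor HY5, rose by 0.98 from a dim dark level, and AT4G38900 on the bZIP list rose by 1.41. Of 23 bZIP factors 4 rose and 4 fell.

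**Figure D3:**
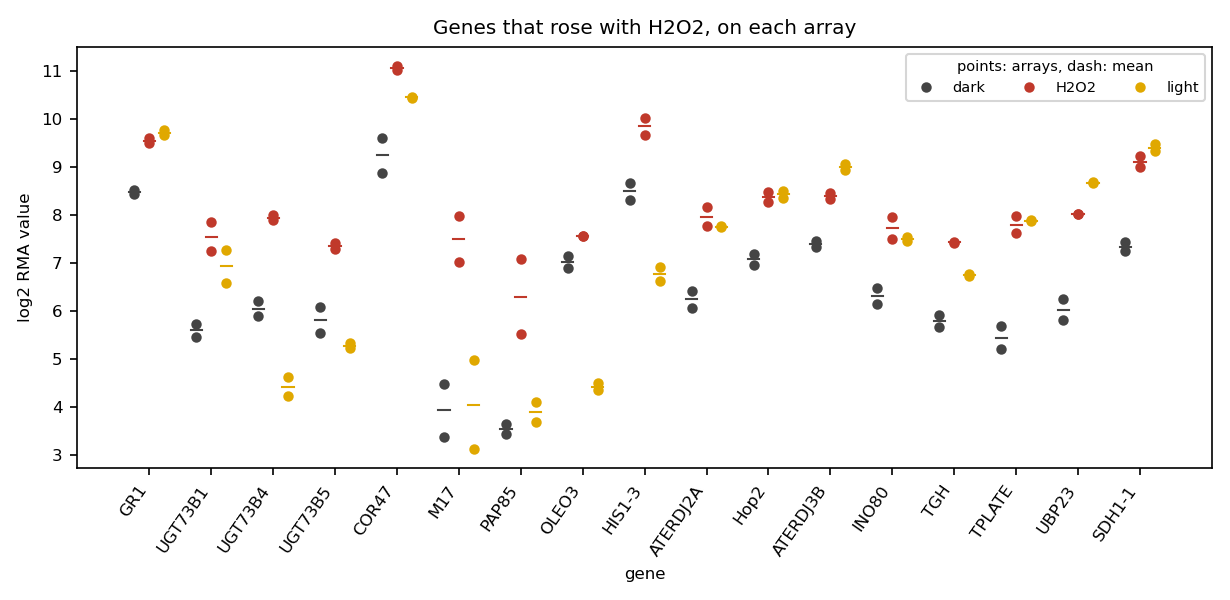
Log2 RMA values of 17 genes that rose with H2O2, on each array, with 2 points and a dash for the mean in each of the dark (grey), H2O2 (red) and light (yellow) groups. Both H2O2 arrays lie above both dark arrays for each gene, which was a condition for naming it. In light UGT73B4, UGT73B5, OLEO3 and HIS1-3 lie under the dark arrays, and GR1, UBP23, ATERDJ3B and SDH1-1 above the H2O2 arrays.

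Among nuclear RNA and chromatin proteins there were rises and, on the next 2 lists, no falls. Of 12 splicing and mRNA export proteins 7 rose and none fell, with a median of 0.82. TGH, the G-patch protein TOUGH that takes part in microRNA processing, read 5.91 and 5.66 in the dark and 7.45 and 7.42 with H2O2, a rise of 1.65 ± 0.14 (adjusted p = 0.00026). In light TGH read 6.73 and 6.78. DDL, the FHA-domain protein DAWDLE of the same process, rose by 1.24, a call that ended without H2O2 replicate 1 or H2O2 replicate 2. ATSRL1 rose by 1.64, from 6.10 and 5.92 to 7.47 and 7.83. THO1, a subunit of the THO mRNA export complex picked after its values were seen, rose by 1.18, while the subunit THO5 was not called and differed by -0.06.

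Among 15 chromatin remodellers and histone modifiers 6 rose and none fell, with a median of 0.36, and 8 of the 15 were dim in both groups. INO80, the ATPase of a nucleosome remodelling complex, read 6.48 and 6.16 in the dark and 7.51 and 7.97 with H2O2, a rise of 1.42 ± 0.18. Its values in light were 7.53 and 7.46. CHR17, an ISWI-type remodeller, rose by 1.26 with dark values of 6.76 and 5.78, and the call ended without dark replicate 2, without H2O2 replicate 1 or without H2O2 replicate 2. SWC2, a subunit of the complex that deposits the histone variant H2A.Z, and SWI3A, a SWI/SNF subunit, rose by 1.09 and 0.94 from dim dark levels. The linker histone-like HON4 rose by 1.06.

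Mediator and RNA polymerase subunits did not move as a group, with 2 rises and 2 falls among 16 and a median of -0.10. MED19A rose by 2.49 from dark values of 4.06 and 3.23, while the polymerase subunits NRPB9B and NRPB12 fell by 0.62 and 0.53. Those falls turned to differences of 0.15 and 0.25 after centring on the hybridisation controls. Each of the 2 calls ended without dark replicate 2, without H2O2 replicate 1 or without H2O2 replicate 2, and that of NRPB12 also without dark replicate 1. Nuclear regulators chosen after their values were seen included LD, the flowering-time protein LUMINIDEPENDENS (1.86, dim in the dark), GT2, a trihelix factor (1.67), NERD, a protein of small-RNA-directed chromatin silencing (1.55, dim in the dark), SEU, the co-repressor SEUSS (1.21), and BIM1, a bHLH partner in brassinosteroid signalling (1.15), each a rise that held without any one of the 4 libraries.

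The 15 largest rises included iqd32 among cytoskeleton proteins and TPLATE among membrane traffic proteins. IQD proteins are calmodulin-binding scaffolds on microtubules, TRM proteins recruit others to microtubules, and NET proteins bind actin at membranes. Of 39 measured, 13 rose and none fell, against 12.3% and 8.18% of all probe sets, and 16 of the 39 were dim in both groups. The median was 0.32, and 0.19 after array-median centring. The gene iqd32 read 6.50 and 5.74 in the dark and 8.11 and 8.07 with H2O2, a rise of 1.97 ± 0.22 (adjusted p = 0.0007). On the light arrays it read 7.33 and 7.30. NET1B rose by 1.33 from a dim dark level, NET4B by 1.13 from 7.23 and 6.87 to 8.28 and 8.07, and IQD31 by 1.13, a call that ended without H2O2 replicate 1.

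Of 24 vesicle traffic genes 4 rose and none fell, near the background, and the median of 0.03 became -0.09 after array-median centring. TPLATE, a subunit of the plant endocytic adaptor complex of that name, read 5.68 and 5.21 in the dark and 7.98 and 7.62 with H2O2, without overlap. Its difference of 2.35 ± 0.19 (adjusted p = 0.00022) was a 5.11-fold rise. The other 3 were subunits of ESCRT-III, the complex that pinches vesicles into endosomes: VPS24.1 rose by 1.34, VPS2.2 by 1.13 from a dim dark level, and VPS2.1 by 0.64, a call that ended without dark replicate 2, without H2O2 replicate 1 or without H2O2 replicate 2.

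Of 12 ubiquitin-specific proteases, which strip ubiquitin from proteins, 3 rose and 1 fell. UBP23 read 6.24 and 5.81 in the dark and 8.03 and 8.03 with H2O2, a rise of 2.01 ± 0.16. CCT1 and CCT2, which make the CDP-choline used for phosphatidylcholine, were chosen after their values were seen and rose by 1.94 and 1.01. CCT1 went from 7.42 and 6.55 to 9.03 and 8.81. Of the wall and growth sensors chosen in the same way, THE1, the receptor kinase THESEUS1, rose by 0.82 and PSY1R, the receptor kinase for the peptide PSY1, rose by 1.00.

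The organelle genomes differed in direction on the deposited scale. Genes encoded in the plastid had 16 rises and no fall among 69, or 23.2% higher against 12.3% of all probe sets. None of the 69 was dim in both groups, whereas the 12.3% includes dim probe sets. Without dim probe sets 2603 of 13648 rose, a share nearer to that of the plastid-encoded genes. Their median was 0.16 (0.03 after array-median centring, under which 14 rose and 6 fell). After centring on the hybridisation controls the medians of both genomes were positive, at 0.93 for the plastid and 0.25 for the mitochondrion. The 5 largest rises were all ribosomal protein genes: rpl22, rpl36, rpl16, rps3 and rpl14. The gene rps3 read 9.43 and 8.80 in the dark and 10.61 and 10.58 with H2O2, a rise of 1.48 ± 0.20 (adjusted p = 0.0015).

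For others of that set the dark replicates lay far apart. The gene rpl22 read 8.65 and 6.62 in the dark and 9.44 and 9.68 with H2O2, a rise of 1.92 ± 0.51, and rpl16 read 8.34 and 6.83 in the dark and 9.17 and 9.19 with H2O2, a rise of 1.59 ± 0.39. Both calls ended without H2O2 replicate 1 or H2O2 replicate 2. The rise of rpl36, 1.82, ended without H2O2 replicate 1. The plastid photosynthesis genes psbA and atpA were chosen after their values were seen, and differed in opposite directions. The gene psbA, which encodes the D1 protein of photosystem II, read 9.08 and 8.10 in the dark and 7.81 and 7.74 with H2O2. It was not called (-0.81, adjusted p = 0.068, but 0.0343 after array-median centring). The ATP synthase subunit gene atpA rose by 1.19, a call that ended without dark replicate 1, without H2O2 replicate 1 or without H2O2 replicate 2.

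Genes encoded in the mitochondrion had 7 falls and 1 rise among 16, with a median of -0.53 that turned to 0.25 after centring on the hybridisation controls. None of the 7 falls held in all 4 fits that left out a library. The gene cox1, for a subunit of cytochrome c oxidase, read 8.71 and 9.21 in the dark and 7.85 and 8.05 with H2O2 and fell by 1.01, a call that ended without dark replicate 2, without H2O2 replicate 1 or without H2O2 replicate 2. The gene cox2, for another subunit, fell by 0.89, a call that ended without H2O2 replicate 1, and nad5, for a subunit of complex I, fell by 0.83, a call that ended without dark replicate 1, without dark replicate 2 or without H2O2 replicate 1. The rise was ccb382, a cytochrome c maturation gene, which read 6.86 and 6.96 in the dark and 8.74 and 8.41 with H2O2 (1.66 ± 0.15).

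Respiratory subunits encoded in the nucleus had 1 rise among 6. SDH1-1, the flavoprotein subunit of succinate dehydrogenase, read 7.43 and 7.26 in the dark, 9.23 and 9.0 with H2O2, and 9.35 and 9.48 in light, and rose by 1.77 (SE 0.14). FDH, the mitochondrial formate dehydrogenase, chosen after its values were seen, rose by 0.94, a call that ended without H2O2 replicate 2.

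**Figure D4:**
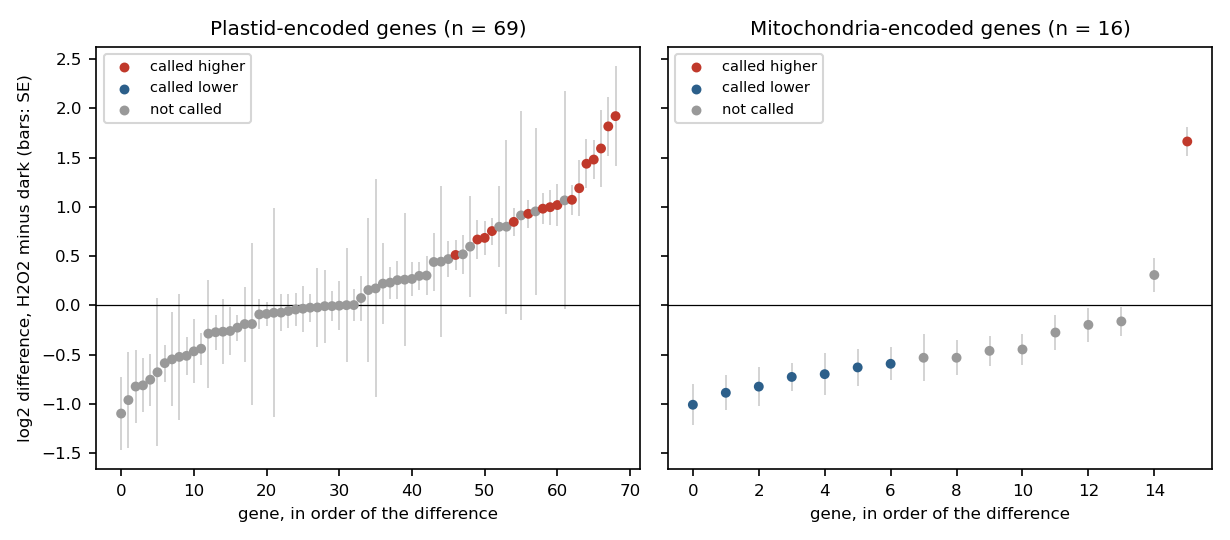
Log2 difference between H2O2 and dark arrays, with its SE, for each of 69 plastid-encoded (left) and 16 mitochondria-encoded genes (right), ordered by the difference on the deposited scale. Red points were called higher, blue points lower and grey points were not called: 16 plastid-encoded genes were called higher, and 7 mitochondria-encoded genes were called lower with 1 higher; the median of the second set turned to 0.25 after centring on the hybridisation controls.

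The 15 largest falls and 15 largest rises among genes that were not dim in either group held in all 4 fits that left out a library, except for AT3G05730, which fell by 2.25 and whose call ended without dark replicate 1. None of the 15 falling genes and 4 of the 15 rising ones had a symbol besides the locus in the annotation used. The largest fall was AT3G55790, which read 9.93 and 10.10 in the dark and 6.50 and 5.42 with H2O2, a difference of -4.05 ± 0.29 or 16.6-fold, and 3.43 and 3.49 in light. AT3G16670 read 7.96 and 8.15 in the dark and 5.95 and 5.09 with H2O2 and fell by 2.54, but in light it read 9.69 and 9.58.

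Falls without overlap followed for AT3G59480, AT2G23270 and AT2G41800, with differences of -2.39, -2.33 and -2.25, for AT1G26410, AT5G62340 and AT5G23840, with -2.11, -2.06 and -2.06, and for AT5G39670, AT4G28460, AT5G48430 and AT3G18250, with -1.98, -1.89, -1.85 and -1.84. AT1G47400 and AT1G26250, described above, complete the set. On the light arrays 9 of the 15 falling genes lay under both H2O2 arrays and 3 lay above both dark arrays.

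Among the largest rises, AT2G01100 read 7.75 and 7.46 in the dark and 9.84 and 10.07 with H2O2, a difference of 2.35 ± 0.16. ZAP1, a WRKY factor, read 5.43 and 5.15 in the dark and 7.39 and 7.34 with H2O2, a difference of 2.08 ± 0.14. AT5G09850, AT5G11500, AT3G58600, AT3G19515 and AT1G71080 rose by 2.14, 2.14, 2.06, 2.04 and 2.03. AT2G35880, AT3G49990, AT5G16030, AT1G61100 and AT3G02760 rose by 2.02, 2.01, 2.01, 1.98 and 1.98. For all 15 rising genes dark replicate 1 was above dark replicate 2, and both light arrays were above both dark arrays. The light and H2O2 comparisons share the dark arrays, so the 2 are not independent.

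Other lists gave fewer calls. Of 119 ribosomal protein genes of the nucleus 5 rose and 12 fell, with a median of -0.19, and after array-median centring 2 rose and 25 fell. Of 24 cytochrome P450 enzymes 1 rose and 3 fell, and of 9 proteasome subunits 1 rose and none fell. None of 11 auxin response genes was called by limma, with differences between -0.42 and 0.36. For 8 chlorophyll and tetrapyrrole synthesis genes there were 2 rises and no fall, with a median of 0.32, and for the 9 photosystem and antenna genes 1 rise and no fall.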

How the data were processed

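Total RNA from whole seedlings was hybridised to ATH1 arrays, 2 arrays for each of the dark, H2O2 and light groups, with groups and replicate numbers taken from the sample titles. The authors deposited log2 values for 22810 probe sets, made with RMA (background correction, normalization between arrays and summary of each probe set), per the submitters' processing notes, which also name limma. No source used here gives the RMA version, its settings or the chip definition; that the scale is log2 was read from the range of the values. Arrays give no counts, so the number of arrays limits the precision.

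After 64 array controls were left out, group means of 22746 probe sets were fitted across the 6 arrays by lmFit and moderated by eBayes (limma 3.58.1, R 4.3.3), which left 3 residual degrees of freedom and added 5.84 prior ones. The H2O2 minus dark contrast was tested on both sides, and a call means a p under 0.05 after Benjamini-Hochberg adjustment over all 22746. Differences are given with the SE of the fit, and tables and figures were made with pandas 2.3.3 and matplotlib 3.10.9 in Python 3.11.15. The fit was tested on simulated data in which 200 of 22746 probe sets were changed by a known size. Of these 200 it recovered 1 at a log2 size of 0.5, 192 at 1 and 200 at 2, with 0, 20 and 19 false calls. Far more probe sets were called in the data (4656), so these shares do not carry over to them.

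Genes were named from the 13513 probe sets that the platform annotation, updated through the RefSeq gene table, gives to 1 gene. A further 503 name several genes and 8730 are unnamed here. The probe set with the highest mean stood for a gene, and loci without a symbol carry only the name of their list. A gene counts as measured where such a probe set names it, so other loci may lie among the unnamed probe sets. Named were the 15 largest called rises and falls among genes that were not dim and did not overlap. Up to 4 called members of each list described, also without overlap, were named as well. Lack of overlap was thus a condition for naming these genes and gives their differences no added support. Of 16 fixed loci, 1 (STZ) had a probe set named here, and values of the others were not looked up. Other genes are named as chosen after their values were seen, or are given as values beside a list's count. The members and lists were chosen with earlier results of these data known, and some lists were extended or narrowed after values were seen. Lists are described by counts and medians, without a test. Lists written by locus were covered in part. For root hair genes 39 loci were written and 14 genes measured, for photosystem and antenna genes 49 and 9, and for iron genes 48 and 14. For low-oxygen genes these counts were 45 and 21, for heat shock proteins 41 and 13, and for seed storage and oil body genes 25 and 9.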

Additional observations from a re-analysis of the deposited data

How the results depend on the processing

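The count of probe sets called moved by less than 1.5 times with the dark and H2O2 arrays alone, without dim probe sets, with a trend in eBayes and with array-median centring, but the last raised falls to 3285. After centring on the hybridisation controls 2379 were called, all of them changed at least 2-fold, with 26 falls; the 2 dark arrays differed in those controls (9.47 and 10.13). Leaving out 1 library gave 2135 to 3131 calls, 1441 to 2040 rises and 676 to 1091 falls, and between 1036 and 1372 changes of at least 2-fold; such fits assume that the lone array varies like the other groups. With the replicate number as a block (replicate block) 4590 were called. Same-numbered arrays did not deviate together across probe sets (r = -0.03 for dark and H2O2, 0.07 for dark and light, -0.0019 for H2O2 and light). Each group gives only 1 replicate difference, so whether same-numbered samples were grown or processed together was not tested. The sign of 12 named falls turned after centring on the hybridisation controls, to 0.10 (PRA1.B1), 0.15 (PYE), 0.15 (PRA1.E), 0.15 (TY1), 0.15 (CML42), 0.15 (NRPB9B), 0.16 (PRA1.B4), 0.19 (UBP22), 0.25 (NRPB12), 0.27 (MSRB5), 0.30 (Hsp70-2), 0.34 (ATHM2). The cause was not tested. Of 163 named genes, 46 lost their call under that centring with the sign kept, 3 (MED9, OLEO3 and UBP19) under array-median centring, 2 with the replicate block, 2 with the trend, and 20 to 37 when 1 library was left out. With the mean over all probe sets of a gene in place of the brightest, the median of all named genes stayed at -0.03. The 2 arrays a group limit the precision: the median SE was 0.15 and the median size of a called difference 0.73 on the log2 scale.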
